A study of Mus musculus with 8 samples.

Results

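Most stretches of mouse DNA with many CpG dinucleotides carry little methylation, and the 162 windows described here are the exception: CpG-dense windows that were highly methylated in kidney. They were selected among 11280 windows of 1000 bp on chromosomes 1 to 19 that held 20 or more CpG positions, each with at least 10 reads in all 8 libraries. The members were selected on their methylation level in 1 library, the ischemia sham, by a median over positions of 80% or more. That library therefore set the high level of the members, and its values, and differences from it, are given as descriptions with no test. Of the other CpG-dense windows, 256 had a median of 20% to below 80% and 10862 a median below 20% in the same library. The members just inside the limit had medians of 80.77%, 81.33% and 81.43%, and the windows just outside it 78.57%, 79.25% and 79.66%.

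The study examined kidney fibrosis by reduced representation bisulfite sequencing (RRBS), which cuts DNA at CCGG sites with MspI and reads methylation at CpG positions near the cuts. DNA came from kidney cortex and outer medulla of male wild type C57BL/6J mice. The groups were 7 days of unilateral ureteral obstruction (UUO) with 5AZA (2 libraries), UUO without it (2 libraries), the sham operation for UUO (1 library), bilateral ischemia of 25 minutes with 1 week of reperfusion (1 library) or 1 month (1 library), and the sham for ischemia (1 library). 5AZA was injected intraperitoneally at 1 mg per kg per day in saline. The single-library groups had no replicate check. The labels do not say that paired libraries came from separate animals, so SDs measure the spread between libraries alone. The p-values rest on that spread, on a dispersion shared over all windows and on counting error, and not on a known spread between animals. Between 57853745 and 86411736 reads lay over CpG positions per library, and 399 to 23410 reads behind a member's value in a library. A read over several CpGs is counted at each of them, here and in the reads of windows and promoters below. A window's level is the share of methylated reads over all its positions, in percent, and differences between levels are in percentage points. Bulk kidney holds many cell types, so a change of methylation within cells and a change in the makeup of cells cannot be told apart.

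As background, a CpG island is a CpG-dense region that is usually kept free of methylation by the transcription machinery and by proteins that bind unmethylated CpGs. Islands that become methylated in normal tissue fall into known kinds: promoters of genes used in germ cells, which are silenced by methylation around implantation, islands inside transcribed genes, and islands of imprinted or repeated DNA. The methyl mark is laid down by DNMT3A and DNMT3B and copied at replication by DNMT1. 5AZA is the usual abbreviation of azacytidine-type inhibitors of these enzymes, which act when built into newly made DNA.

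Of the 162 windows, 7 overlapped the promoter of a known gene, taken as the 300 bases from 250 before to 50 after its start, and all 7 genes are known for roles in germ cells. Mael acts in the piRNA pathway that silences transposons, Slc25a31 encodes the ADP/ATP carrier of sperm mitochondria, and Sohlh2 encodes a transcription factor of early germ cells. Hormad1 encodes a protein of the meiotic chromosome axis, Dmrtb1 a transcription factor of spermatogonia, Hsf5 a testis member of the heat shock factor family, and Rpl39l a testis form of a ribosomal protein. In 6 of them the start itself lay in the member, while the Sohlh2 member began after the start of that gene and held only the last 15 of the 300 bases. The Mael member held 175 of the 300 bases, and the other 5 held them all. These genes are named because their promoters overlapped members, after their values had been seen. Their promoters were found in the mm9 tables from the spacing of CpGs in RefSeq promoter sequences of GRCm38.p6, as no genome of the files' build was used. The 250 bases before each start are shown because they make up most of the bases that the following values describe. They are written 5′ to 3′ on the gene's strand, and capitals mark the CpGs that were measured in all 8 libraries. The mm9 coordinates rest on the matched CpGs, and the other bases were not compared with mm9.
Mael (chr1:168168876-168169125, minus strand): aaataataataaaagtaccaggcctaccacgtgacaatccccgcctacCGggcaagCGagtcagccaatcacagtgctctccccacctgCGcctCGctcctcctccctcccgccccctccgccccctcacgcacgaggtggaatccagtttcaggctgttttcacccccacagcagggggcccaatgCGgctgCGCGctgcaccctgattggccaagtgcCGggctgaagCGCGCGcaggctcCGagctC
Slc25a31 (chr3:40512543-40512792, plus strand): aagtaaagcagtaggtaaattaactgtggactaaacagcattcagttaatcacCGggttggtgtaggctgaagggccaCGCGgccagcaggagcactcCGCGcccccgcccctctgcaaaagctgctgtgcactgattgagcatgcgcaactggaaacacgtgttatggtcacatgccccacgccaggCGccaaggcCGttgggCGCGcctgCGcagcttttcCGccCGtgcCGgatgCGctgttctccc
Sohlh2 (chr3:54985716-54985965, plus strand): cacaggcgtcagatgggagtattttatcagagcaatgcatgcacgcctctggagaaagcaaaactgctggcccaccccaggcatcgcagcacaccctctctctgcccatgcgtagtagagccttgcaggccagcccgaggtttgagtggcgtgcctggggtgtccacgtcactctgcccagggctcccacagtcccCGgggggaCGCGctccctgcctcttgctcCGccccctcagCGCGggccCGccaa
Hormad1 (chr3:95363349-95363598, plus strand): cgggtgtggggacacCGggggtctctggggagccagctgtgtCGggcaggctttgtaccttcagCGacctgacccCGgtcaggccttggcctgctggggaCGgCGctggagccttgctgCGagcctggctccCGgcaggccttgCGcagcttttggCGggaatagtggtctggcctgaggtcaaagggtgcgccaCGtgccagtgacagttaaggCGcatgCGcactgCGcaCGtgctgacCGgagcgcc
Dmrtb1 (chr4:107356195-107356444, minus strand): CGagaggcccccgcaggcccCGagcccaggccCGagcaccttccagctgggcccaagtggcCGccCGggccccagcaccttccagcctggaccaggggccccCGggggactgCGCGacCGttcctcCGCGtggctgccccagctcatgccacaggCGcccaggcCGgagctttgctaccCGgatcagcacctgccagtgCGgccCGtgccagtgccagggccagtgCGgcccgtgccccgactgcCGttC
Hsf5 (chr11:87430416-87430665, plus strand): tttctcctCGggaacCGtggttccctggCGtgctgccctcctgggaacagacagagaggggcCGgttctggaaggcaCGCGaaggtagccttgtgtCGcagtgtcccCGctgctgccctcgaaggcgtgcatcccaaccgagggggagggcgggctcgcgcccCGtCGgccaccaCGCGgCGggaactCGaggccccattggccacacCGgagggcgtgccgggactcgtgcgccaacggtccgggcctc
Rpl39l (chr16:10170071-10170320, plus strand): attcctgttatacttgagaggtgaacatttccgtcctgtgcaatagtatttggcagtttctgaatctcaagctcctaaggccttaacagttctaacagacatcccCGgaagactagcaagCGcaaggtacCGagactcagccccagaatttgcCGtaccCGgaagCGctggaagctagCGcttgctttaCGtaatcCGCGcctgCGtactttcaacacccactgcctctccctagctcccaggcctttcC

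Over the 300 bases from 250 before to 50 after the start, the 7 promoters were methylated at 84.17% to 95.71% in each of the 56 values of promoters and libraries, with 262 to 2008 reads each. Slc25a31 had 88.92% and 92.70% in UUO with 5AZA, against 94.00% and 95.71% in UUO and 91.43% in the UUO sham. Its level was 94.30% after 1 week and 95.10% after 1 month of reperfusion, against 94.83% in the ischemia sham. The Slc25a31 promoter was thus lower in both 5AZA libraries than in both UUO libraries, without overlap. Hormad1 had 84.17% and 88.59% in UUO with 5AZA, against 88.61% and 89.92% in UUO and 89.79% in the UUO sham. Its ischemia libraries had 89.43% after 1 week and 88.52% after 1 month, against 91.60% in the ischemia sham. Dmrtb1 had 92.06% and 92.78% in UUO with 5AZA, against 94.17% and 94.67% in UUO and 92.81% in the UUO sham. It was the third promoter, beside Slc25a31 and Hormad1, in which the 5AZA libraries did not overlap with the UUO libraries and were the lower ones. That is 3 of 7 promoters, against 49.2% of all windows, and in Hormad1 the nearest 5AZA and UUO libraries, at 88.59% and 88.61%, were hardly apart, so nothing is read from this count. In the ischemia libraries Dmrtb1 had 94.58% after 1 week and 93.72% after 1 month, against 93.62% in the sham.

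The other 4 promoters overlapped between the groups. Sohlh2 had 86.11% and 95.24% in UUO with 5AZA and 90.15% and 90.76% in UUO, with 91.42% in the UUO sham, so its 5AZA libraries lay on either side of the rest. It had 92.37% after 1 week and 94.72% after 1 month, against 91.25% in the ischemia sham. Hsf5 had 89.49% and 84.69% in UUO with 5AZA, against 93.41% and 89.18% in UUO and 91.53% in the UUO sham. Its ischemia libraries had 92.33% after 1 week and 93.09% after 1 month, against 87.45% in the ischemia sham, which was the lowest of these 3 by 4.88 points. Mael had 86.82% and 86.02% in UUO with 5AZA, against 90.92% and 86.49% in UUO and 88.25% in the UUO sham, with 86.66% after 1 week, 90.53% after 1 month and 93.26% in the ischemia sham. Rpl39l had 88.81% and 92.43% in UUO with 5AZA, against 94.37% and 91.69% in UUO and 92.17% in the UUO sham, with 92.99% after 1 week, 92.68% after 1 month and 93.19% in the ischemia sham. Averaged over the 7 promoters, the level was 89.20% ± 1.62 (SD, n = 2) in UUO with 5AZA, 91.72% ± 0.73 (SD, n = 2) in UUO and 91.06% in the UUO sham. It was 91.81% after 1 week and 92.62% after 1 month of reperfusion, against 92.17% in the ischemia sham.

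Single CpGs within 1000 bp of these starts were nearly all highly methylated. Of 1704 values, from 213 positions in 8 libraries, 1535 (90.1%) were at 80% or more and 9 were below 50%. The low values fell at 5 positions. The lowest, 21.9%, was in 5AZA library 1 at the Rpl39l CpG 14 bp after the start, against 63.8% in 5AZA library 2. At that CpG the level was 61.9% and 44.1% in UUO, 57.6% in the UUO sham and 47.1% after 1 month of reperfusion. At the Hormad1 CpG 55 bp before the start, the level was 44.1% and 46.9% in UUO with 5AZA, against 61.3% and 73.1% in UUO and 59.7% in the UUO sham. At the Mael CpG 54 bp before the start, it was 49.0% and 66.7% in UUO with 5AZA, 46.0% and 56.2% in UUO and 54.7% in the UUO sham. The Hormad1 and Mael positions were also below their neighbours in the ischemia libraries, at 59.0% to 75.0%, so they were partly methylated in every library. These positions were picked after their values were seen.

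**Figure D1:**
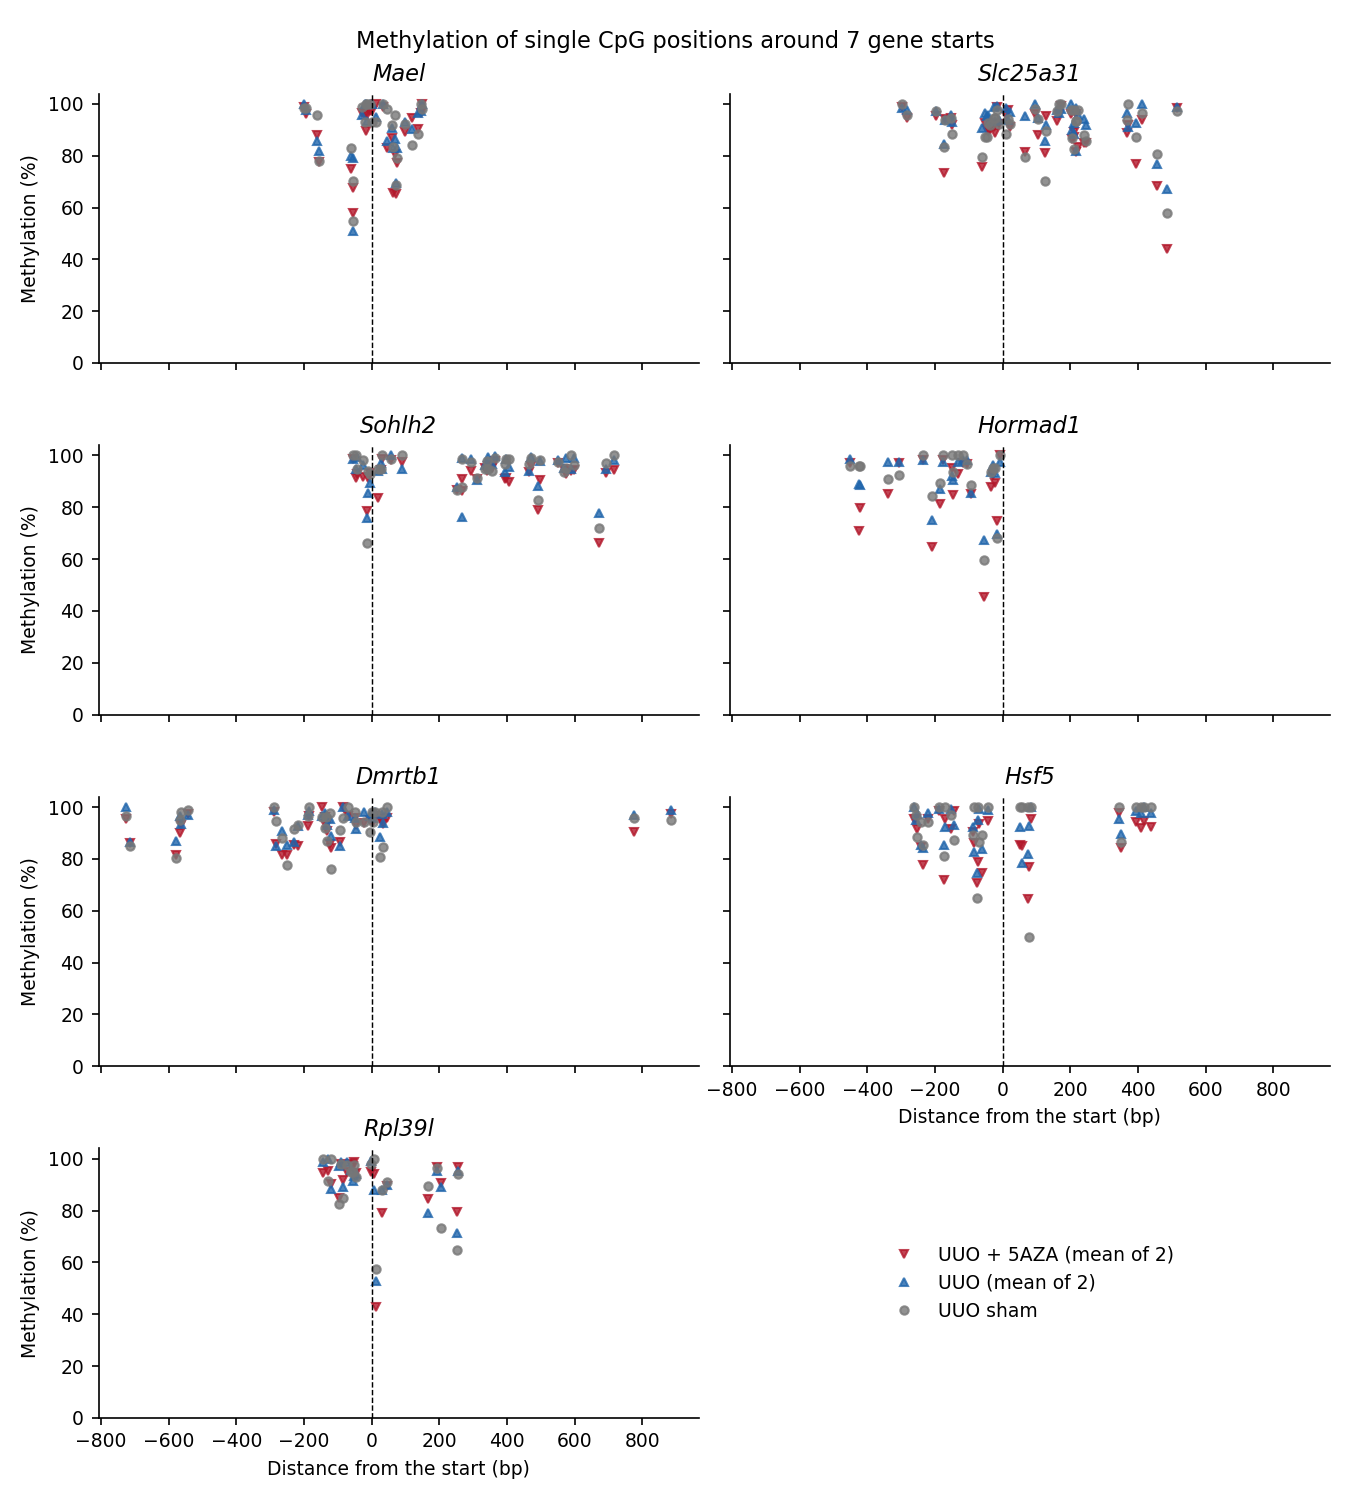
Methylation level of single CpG positions (y axis, %) against distance from the start of each of 7 genes (x axis, bp, negative before the start), as the mean of 2 libraries for UUO with 5AZA and for UUO and as the single UUO sham library. Points lie mostly above 80% on both sides of the starts, though Hormad1 had measured positions before its start alone. Single CpGs are low, such as that 55 bp before Hormad1.

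By the same overlap, 4.35% of the members touched a promoter, counted over the 161 on chromosomes with promoter sequences, against 11.86% of 253 CpG-dense windows of intermediate methylation and 52.78% of 10536 with a median below 20%. The letters TCCCGC, the core of the site of E2F6, a repressor known to silence germ cell genes, stood on either strand of the 300 bases in Mael, Slc25a31, Hormad1 and Hsf5. That is 4 of 7 promoters, against 20.0% of 32851 RefSeq promoters of the same length and 40.6% of the 11726 promoters of genes that could be placed. The letters CACGTG, an E-box of the kind that MAX and its partners bind, stood in Mael, Slc25a31 and Hormad1, or 3 of 7, against 7.2% and 10.3% of the same sets. The 2 motifs did not overlap in any of these promoters, and their presence is a description of the sequence alone.

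Most members lay away from promoters. Inside a gene, downstream of its placed start by less than the gene's annotated remaining length, lay 85 members, of which 81 overlapped no promoter. In the 85 the median distance to the start was 24697 bp, and 14 members, some promoter members included, lay within 5000 bp of it. The share inside genes was not counted for other CpG-dense windows. Genes without a placed promoter were not seen in this search, and exons and introns were not analysed here. For 82 of the 85, placed promoters on both sides of the window were equally far apart in mm9 and GRCm38.p6. Among the genes were Shroom3, an actin regulator of epithelial shape, Hspg2 and Lama5, which encode the basement membrane proteins perlecan and laminin alpha 5, and Vegfa, an angiogenic factor. Lama5, Vegfa and other host genes not covered by the rule for named windows were picked after their values were seen. Shroom3 held 2 neighbouring members from 93370001 to 93372000 on chromosome 5 (mm9, as are all coordinates below), 1 of them with 55 positions. In that window the level was 95.27% and 93.68% in UUO with 5AZA, against 95.12% and 95.50% in UUO and 95.17% in the UUO sham. With 94.38% after 1 week and 95.88% after 1 month, against 94.85% in the ischemia sham, it ranged over 2.20 points in all.

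Chromosome 7 held 25 members, 15.4% of them, against 6.6% of all CpG-dense windows. The longest runs of neighbouring members, of 3 windows each, were both on this chromosome, from 4981001 to 4984000 and from 53048001 to 53051000. The first run held the member with the most positions, 60, from 4982001 to 4983000, where the level was 87.71% and 89.67% in UUO with 5AZA, against 90.99% and 88.99% in UUO and 90.30% in the UUO sham. In all, 16 members lay in 7 runs. Of 105 other tested windows next to a member, 91 had a median of 80% or more in the ischemia sham and 6 a median below 20%. Many windows next to members were not tested, so this describes the tested neighbours alone. High levels were also common elsewhere, as the median window level over all 93730 windows was 81.76% in that library. The nearest CpG-dense window with a median below 20% was at a median distance of 25000 bp.

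**Figure D2:**
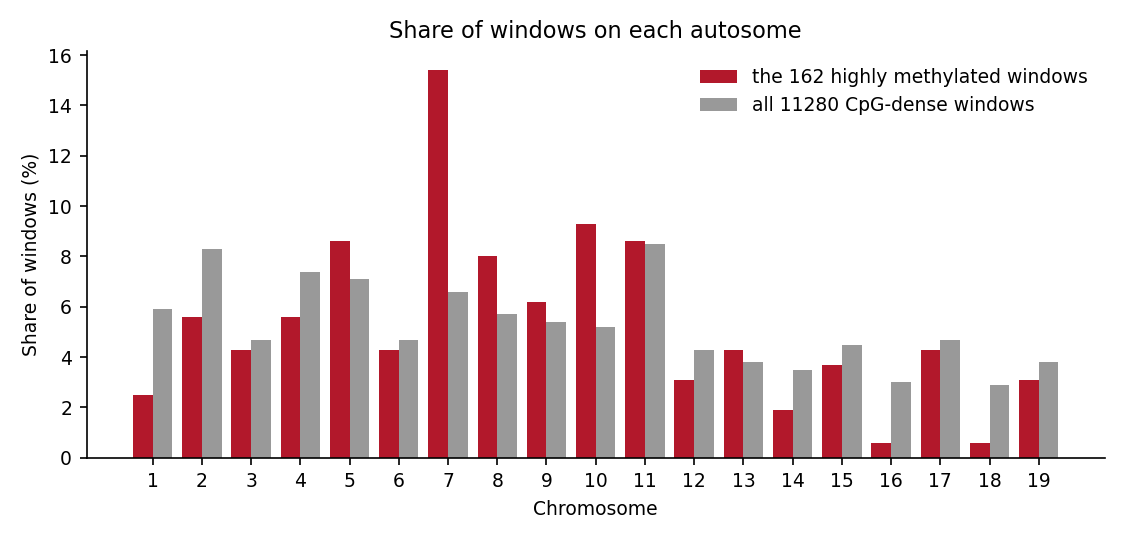
Share of windows on each autosome (bars, y axis in %, x axis the chromosome), for the 162 highly methylated windows and for all 11280 CpG-dense windows. Chromosome 7 holds 15.4% of the highly methylated windows and 6.6% of all CpG-dense windows.

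Across libraries the members stayed high. The mean level over the 162 windows was 87.59% ± 0.41 (SD, n = 2) in UUO with 5AZA, from 87.87% and 87.30%, against 91.10% ± 0.01 (SD, n = 2) in UUO, from 91.09% and 91.10%, and 90.20% in the UUO sham. It was 89.40% after 1 week and 90.21% after 1 month of reperfusion, against 89.84% in the ischemia sham. In 134 members the level was 80% or more in all 8 libraries, in 63 it was 90% or more in all, and in 6 it fell below 70% in at least 1. The range over the libraries had a median of 5.48 points, with 68 members under 5 points and 12 at 10 points or more.

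The steadiest member was on chromosome 2 from 165206001 to 165207000, at 97.36% and 96.51% in UUO with 5AZA, against 97.39% and 97.49% in UUO and 96.63% in the UUO sham. Its ischemia libraries were at 97.15% after 1 week and 96.94% after 1 month, against 97.46% in the ischemia sham, a range of 0.98 points. The widest range, 18.24 points, belonged to the window at 38711001 of chromosome 5, 753 bp downstream of the start of Drd5, which encodes a dopamine receptor. The next, 17.68 points, was on chromosome 13 from 44965001 to 44966000, inside Jarid2, a cofactor of Polycomb complex PRC2. That window was covered by a mean of 815.6 reads per position and library, against a median of 55.9 over members, and its summed reads were methylated at 42.68% to 60.36%, and 96.0% of those reads fell on 5 of its 21 positions, so this window level is not that of its typical CpG. In a window 752 bp downstream of the start of Rtl6, a gene derived from a retrotransposon, the libraries of a group differed most. It had 65.79% and 76.78% in UUO with 5AZA, against 63.94% and 77.35% in UUO and 68.07% in the UUO sham, so the spread within both groups exceeded the difference between them. The Drd5 and Rtl6 windows were unevenly methylated. In the UUO sham 5 of 26 positions in Drd5 and 6 of 20 in Rtl6 were below 50%, the lowest at 1.5% and 0.0%. Levels of such windows can shift with which CpGs the reads cover, which was not tested.

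**Figure D3:**
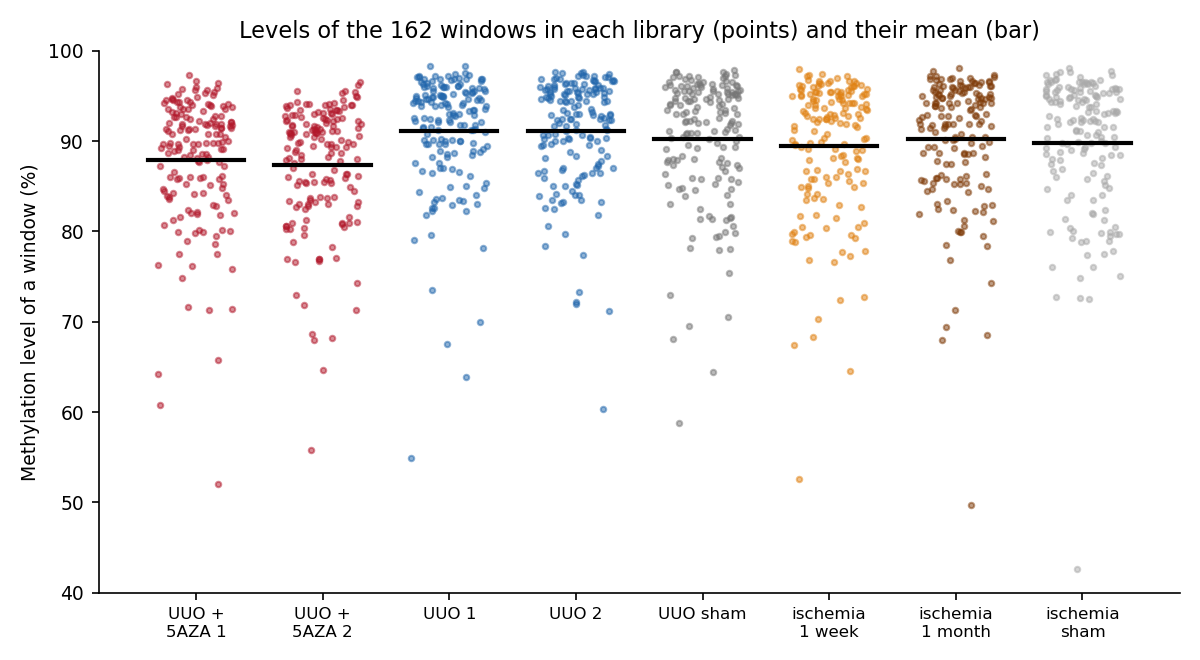
Methylation level (y axis, %) of each of the 162 windows in each of the 8 libraries (x axis), with points for windows and a bar for their mean. The means are 87.87% and 87.30% in UUO with 5AZA and lie between 89.40% and 91.10% in the other 6 libraries.

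With 5AZA the obstructed kidneys had lower methylation in nearly all members. The mean difference between UUO with 5AZA and UUO was -3.51 points (87.59% against 91.10%), and the group mean was lower in 159 of 162 windows. In 138 members (85.2%) each 5AZA library was lower than each UUO library, as in 49.2% of all 93730 tested windows, whose mean level was 68.46% in UUO. Members held a median of 1213 to 1829 reads in these libraries, against 223 to 278 over all windows. Libraries can thus separate more readily in members, and the shares are not like for like. The unmethylated share was 12.41% in UUO with 5AZA, against 8.90% in UUO, a ratio of 1.39. In 39862 windows that were as highly methylated but held 3 to 5 positions, the difference was -3.88 points, with 87.29% against 91.17%. There each 5AZA library was lower than each UUO library in 57.7%, at a median of 146 to 177 reads. The mean difference was -3.17 points in the CpG-dense windows of intermediate methylation and 0.08 points in those with a median below 20%. These means over windows were not tested.

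In single windows, the quasi-binomial model with limma and Benjamini-Hochberg adjustment over all 93730 windows called 0 of 162 members at an adjusted p below 0.05 with at least 10 points of difference, where 338 of all windows (0.361%) were called. No member differed by 10 points, and 130 members had an unadjusted p below 0.05, as did 22720 of all windows (24.2%). Without the minimum difference, a reading added after the data were seen, 31 members passed, all of them lower with 5AZA, against 575 of all windows (0.613%). Members held more reads per window at the median, so small differences can reach low p-values more readily in them. In 30 of these 31 both 5AZA libraries were also below the UUO sham. The falls ranged from -7.95 to -2.88 points, with SEs of 0.48 to 1.18 points, and 20 of the 31 lay inside a gene, as did 85 of all 162 members. The count of 31 depended on single libraries and was 0 without UUO library 1, where 36 of all windows passed, and 13 without UUO library 2, where 171 did. It was 51 without 5AZA library 1, against 1961 of all windows, and 10 without 5AZA library 2, against 142. With edgeR 19 members passed, against 132 of all windows (0.141%). None of the 7 germ cell promoter windows was among the 31.

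The largest of these falls was on chromosome 11 from 50610001 to 50611000, inside Adamts2, which encodes an enzyme that trims fibrillar procollagens. Its level was 78.92% and 78.81% in UUO with 5AZA, against 86.65% and 86.98% in UUO and 83.08% in the UUO sham (-7.95 points from UUO, SE 0.93, adjusted p = 0.016). Both 5AZA libraries lay more than 7 points below both UUO libraries. A window on chromosome 5 from 123607001 to 123608000 had 84.67% and 85.48% in UUO with 5AZA, against 93.48% and 92.50% in UUO and 90.06% in the UUO sham (-7.92 points, SE 1.08, adjusted p = 0.0255). The smallest adjusted p was that of a window on chromosome 7 from 6084001 to 6085000, 23066 bp into the zinc finger gene Zfp787. It had 84.45% and 83.06% in UUO with 5AZA, against 91.34% and 91.38% in UUO and 92.52% in the UUO sham (-7.60 points, SE 0.81, adjusted p = 0.0103). All 3 windows were thus lower with 5AZA than in the UUO sham as well.

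Windows inside Hspg2 and Pxdn were among the 31. In Hspg2, from 137074001 to 137075000 on chromosome 4, the level was 80.13% and 81.64% in UUO with 5AZA, against 88.24% and 86.46% in UUO and 85.96% in the UUO sham (-6.47 points, SE 1.17, adjusted p = 0.0457). In Pxdn, whose product peroxidasin crosslinks collagen IV, it was 94.50% and 93.47% in UUO with 5AZA, against 96.61% and 97.12% in UUO and 97.18% in the UUO sham (-2.88 points, SE 0.48, adjusted p = 0.04). The Lama5 window had 93.56% and 90.41% in UUO with 5AZA, against 94.71% and 96.26% in UUO and 95.59% in the UUO sham, with an adjusted p of 0.0905. In the Vegfa window the levels were 80.21% and 74.26% in UUO with 5AZA, against 84.39% and 85.17% in UUO and 81.32% in the UUO sham, with an adjusted p of 0.0665. These host genes were picked after their values were seen. The window with the most positions among the 31, 45, was on chromosome 4 from 131456001 to 131457000, at 92.14% and 91.92% in UUO with 5AZA, against 96.08% and 96.40% in UUO and 95.64% in the UUO sham (-4.21 points, SE 0.49, adjusted p = 0.0125).

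The largest differences did not all pass. Inside Bsn, which encodes the presynaptic scaffold bassoon, a window on chromosome 9 from 108017001 to 108018000 had 76.29% and 67.96% in UUO with 5AZA, against 82.27% and 79.76% in UUO and 72.95% in the UUO sham (-8.89 points, SE 2.02, adjusted p = 0.0609). A second Bsn window, from 108009001 to 108010000, passed, with 82.41% and 82.73% in UUO with 5AZA, against 89.46% and 87.47% in UUO and 81.75% in the UUO sham (-5.90 points, SE 1.02, adjusted p = 0.0425). In it the 5AZA libraries lay above the UUO sham, the 1 exception among the 31. The Drd5 window had 71.38% and 68.22% in UUO with 5AZA, against 82.63% and 73.30% in UUO and 64.39% in the UUO sham (-8.17 points, SE 2.48, adjusted p = 0.102). The mean was higher in UUO with 5AZA than in UUO in 3 members, with differences of 0.67 points in Neurl1b, 0.64 points in Rtl6 and 0.47 points in the window at 41643001 of chromosome 3.

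The difference with 5AZA, in points, was larger where methylation was less complete. Classed by the UUO sham, a library outside this comparison, the 50 members at 95% or more had 93.46% in UUO with 5AZA against 96.15% in UUO, a difference of -2.69 points. The 53 members at 90% to below 95% differed by -3.32 points, the 44 at 80% to below 90% by -4.18 points, and the 15 below 80% by -4.97 points, with 72.89% against 77.86%. In proportion to the unmethylated share, however, the rise was larger in the members at 95% or more than in those below 80%. Single positions had the same order in points from 50% upwards. The 521 positions at 50% to below 80% in that sham differed by -6.26 points, and the 1937 at 95% or more by -2.62 points. The share of the 4237 positions that were methylated at 95% or more was 31.1% and 26.9% in UUO with 5AZA, against 47.7% and 48.7% in UUO and 45.7% in the UUO sham. With 20 to 24 positions per window the difference was -3.49 points, with 25 to 29 it was -3.42 points, and with 30 to 60 it was -3.64 points, so it varied little with the number of measured CpGs.

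**Figure D4:**
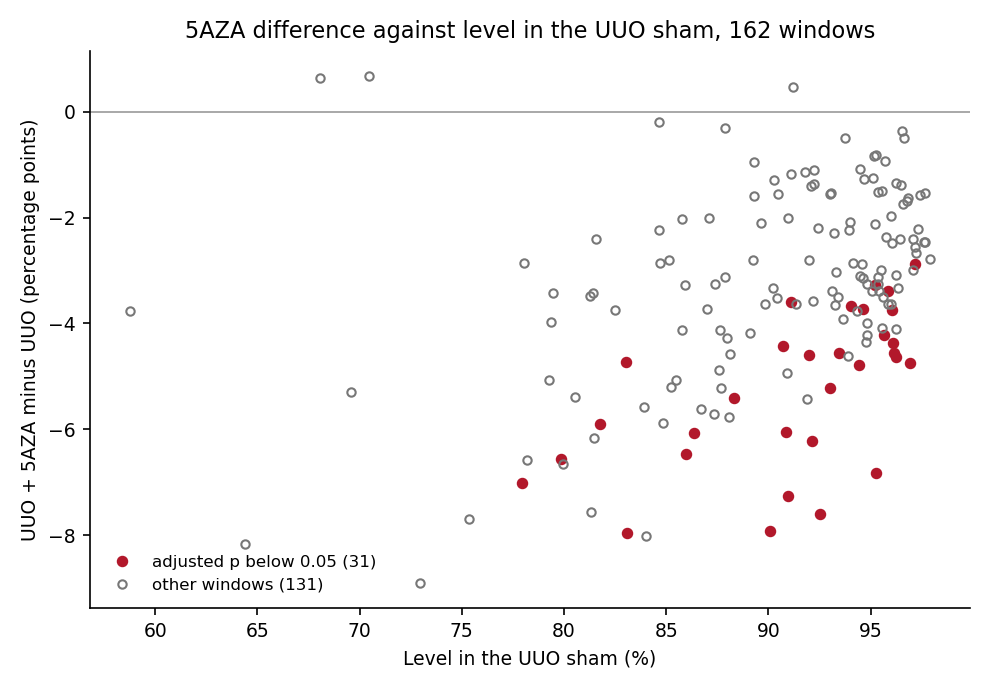
Difference between UUO with 5AZA and UUO (y axis, percentage points) against the level in the UUO sham (x axis, %) for the 162 windows, with the 31 windows at an adjusted p below 0.05 filled. All but 3 points lie below 0, and the mean difference is -2.69 points at 95% or more in the sham and -4.97 points below 80%.

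Against the UUO sham, the mean difference of UUO with 5AZA was -2.61 points (87.59% against 90.20%), with both 5AZA libraries below the sham in 134 windows, or 82.7%, against 55.5% of all windows. Members again held more reads per window at the median. The largest difference was on chromosome 9 from 21962001 to 21963000, with 74.80% and 76.98% in UUO with 5AZA against 87.35% in the UUO sham. In that window the ischemia sham was at 74.88%, as low as the 5AZA libraries, so the UUO sham stood apart there.

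UUO differed little from its sham in these windows. The mean was 0.90 points higher in UUO than in the UUO sham, at 91.10% ± 0.01 (SD, n = 2) against 90.20%, and higher in 101 members and lower in 61. The sham libraries of both models differed by 0.36 points. Both UUO libraries were above the UUO sham in 86 members, or 53.1%, against 42.5% of all windows, with more reads per window in members at the median. The quasi-binomial model with limma called 0 of 162 members at 10 points and an adjusted p below 0.05, against 17 of all 93730 windows (0.0181%). By the same limits edgeR also called 0 members, against 1 of all windows. At an unadjusted p below 0.05 there were 27 members higher and 9 lower in the model with limma, and 41 in all with edgeR, against 7617 (8.13%) and 6892 (7.35%) of all windows by the same 2 tools. The difference was largest in incompletely methylated members. Classed by the ischemia sham, the 21 members below 80% had 80.25% in UUO against 77.07% in the UUO sham, which is 3.18 points higher, and the 46 members at 95% or more had 96.17% against 96.08%. These class means were not tested. The SEs of single windows were 0.47 to 4.72 points with a median of 1.02, so a difference of 0.90 points was not detectable in most single windows.

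The largest positive difference was in the unevenly methylated Drd5 window, with 82.63% and 73.30% in UUO, against 64.39% in the UUO sham (95% exact binomial interval 62.41 to 66.34). The difference was 13.57 points (SE 2.98, adjusted p = 0.271), and the UUO libraries themselves were more than 9 points apart. Without UUO library 2, the lower one, the difference was 18.24 points. The Bsn window from 108017001 had 82.27% and 79.76% in UUO, against 72.95% in the UUO sham (8.06 points, SE 2.36, adjusted p = 0.38). A window 314842 bp into Kcnh1, a potassium channel gene, had 87.60% and 85.71% in UUO, against 79.29% in the UUO sham (7.36 points, SE 1.55, adjusted p = 0.216). A window inside Efl1, which encodes a ribosome maturation factor, had 89.76% and 89.69% in UUO, against 82.48% in the UUO sham (7.24 points, SE 1.23, adjusted p = 0.126). It was covered by a mean of 253.4 reads per position and library, against a median of 55.9 over members. That is above the limit of 112.1 for very deep windows. In that Efl1 window the other sham, that of ischemia, was at 90.69%, as high as UUO. Without fragment ends the Efl1 window was the 1 member called (10.64 points, adjusted p = 0.0341), where 63 of all 33656 windows were called. The largest negative difference was in the window at 21962001 of chromosome 9, with 79.00% and 84.19% in UUO, against 87.35% in the UUO sham (-5.75 points, SE 1.84, adjusted p = 0.435).

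After ischemia the members stayed near their sham. The mean was 89.40% at 1 week against 89.84% in the ischemia sham (-0.43 points), lower in 99 of 162 windows, though 0.55 points higher when reads were pooled over the windows, and 90.21% at 1 month against 89.84% (0.37 points), higher in 90. The 1-month library was 0.80 points above the 1-week library and higher in 102 windows. Both differences from the sham were close in size to the 0.36 points between the 2 sham libraries, and no test was made, since the ischemia sham chose the members. A difference of 5 points or more was seen in 11 members at 1 week (6.79%, against 16.5% of all windows) and in 10 at 1 month (6.17%, against 17.0%). Members held more reads per window at the median in the ischemia libraries too, so these shares are not like for like. Pairs of like libraries gave 8 such members between the UUO libraries (4.94%, against 17.4% of all windows). Between the 5AZA libraries there were 13 (8.02%, against 23.6%). The ischemia counts thus lay within the range of these pairs, and the gap to all windows was also seen between like libraries. No member reached 10 points of difference from the ischemia sham at either time.

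The window inside Jarid2 had the largest positive difference at both times, with 52.54% at 1 week and 49.73% at 1 month against 42.68% in the ischemia sham, but the UUO libraries, at 54.94% and 60.36%, and the UUO sham, at 58.78%, were above all 3. A window 3585 bp into Abhd17a, which encodes an enzyme that removes palmitate from proteins, had 85.99% at 1 week and 85.65% at 1 month against 78.92% in the ischemia sham. The largest negative differences at 1 week were on chromosome 7 from 30578001 to 30579000, with 64.51% against 72.69%, and in the Drd5 window, with 68.36% against 76.06%. At 1 month the Drd5 window had 74.34%. The largest negative difference at 1 month was on chromosome 7 from 87226001 to 87227000, with 81.19% against 87.41% in the ischemia sham. Between the times, the Bsn window from 108017001 differed most, with 83.00% at 1 month and 72.75% at 1 week.

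**Figure D5:**
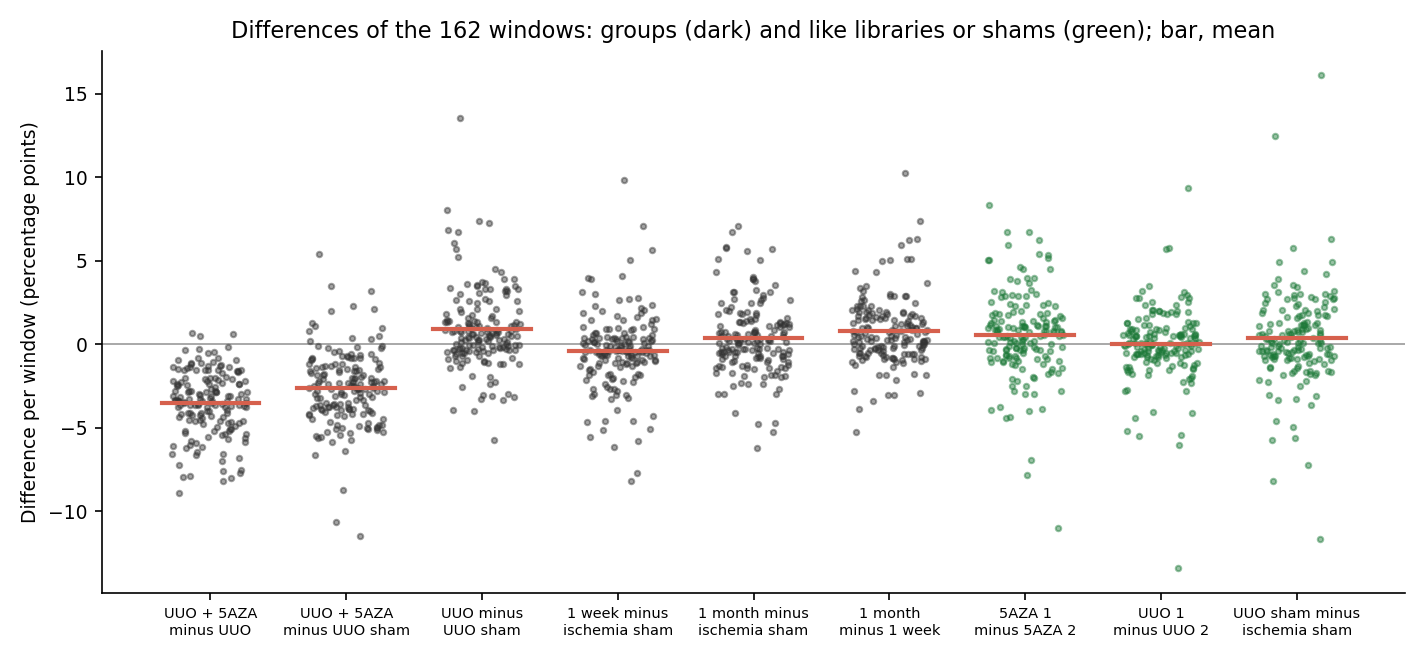
Difference per window (y axis, percentage points) for 6 comparisons of groups, and, in green, between like libraries and between both shams (x axis), with a point for each of the 162 windows and a bar for the mean. The mean is -3.51 points for UUO with 5AZA minus UUO, and between -0.43 and 0.90 points for UUO or ischemia minus its sham and for 1 month minus 1 week.

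Per the labels' protocol, fragment ends were repaired with methylated cytosine before conversion, so CpGs at fragment ends can read as methylated whatever their state. Of the members' positions 58.8% were such ends by a rule on read depth. Without them 159 members kept 3 or more positions, and 142 of these had a median of 80% or more in the ischemia sham. Their mean was 84.58% ± 0.54 (SD, n = 2) in UUO with 5AZA, 89.02% ± 0.15 (SD, n = 2) in UUO and 87.79% in the UUO sham. It was 87.45% after 1 week and 88.20% after 1 month, against 87.67% in the ischemia sham. Inside fragments the difference between UUO with 5AZA and UUO was thus -4.44 points, and that between UUO and its sham 1.23 points.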

How the data were processed

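The deposited tables give, for each CpG and library, a count of covering reads and a count of methylated reads, and a methylation level as a fraction made by the authors from them; none is normalized. Per the submitters' processing notes, Bowtie and mm9 were used; the sources used here give no versions, caller or filters. The members, their promoters and the gene lists were chosen with earlier results of these data known.

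Positions with at least 10 reads in all 8 libraries (976938) were kept, and methylated and total reads were summed in windows of 1000 bp with 3 or more positions (93730). Means weight windows equally. UUO against its sham and UUO with 5AZA against UUO were tested in R 4.3.3 with a quasi-binomial model over all 8 libraries, with 1 mean per group and 2 residual degrees of freedom. The dispersion was moderated with limma 3.58.1 (prior 1.36, 8.47 prior degrees of freedom) and not allowed below 1, and the F test was two-sided with Benjamini-Hochberg adjustment. Calls needed 10 points and an adjusted p below 0.05. The groups of 1 library take their spread from the pairs. The test was checked on simulated data. Intervals are exact binomial at 95% and cover counting error only, since reads over several CpGs are counted at each and PCR copies are not told apart.

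Promoter sequences (RefSeq, GRCm38.p6) were placed in the mm9 tables where 8 or more covered CpGs fell on CpGs of the sequence at 1 place of its chromosome; of 15982 with enough CpGs 10110 were kept. A position was a fragment end where the depths changed by more than 10% to a CpG within 250 bp, or none with 40 reads was near. Named windows are the 5 largest differences each way in the group comparisons, the most positions, the smallest and largest ranges, the threshold neighbours and the longest runs, of which the text uses a part. Chromosome 18, with 1 member, is counted but not described. Alternatives were 20 reads, no fragment ends, no very deep windows, pooled reads, members chosen by the UUO sham or at 90%, a minimum of 5 points, fewer groups in the model, edgeR 4.0.16, a replicate block and each library of the pairs left out. Python 3.11.15 was used.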

Additional observations from a re-analysis of the deposited data

How the results depend on the processing

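Of 44 values of mean differences under the alternatives, 31 moved by less than 0.29 points. That limit is the root mean square of the SDs of both pairs of like libraries, 0.01 points in UUO and 0.41 in UUO with 5AZA. It is thus set mostly by the 5AZA pair. UUO with 5AZA minus UUO was -4.44 points without fragment ends and -3.15 in members at 90% or more, against -3.51. UUO with 5AZA minus the UUO sham was -2.12 points at 20 reads, -3.21 without fragment ends and -2.29 with pooled reads. UUO minus its sham was 1.42 points at 20 reads, 1.23 without fragment ends, 1.30 with pooled reads and 0.45 in members at 90% or more, against 0.90. With pooled reads 1 week minus its sham turned to 0.55 points, 1 month minus its sham became 0.89 and 1 month minus 1 week 0.34; 1 month minus 1 week was 0.42 points in members at 90% or more. The causes of these shifts were not tested. The minimum of 10 points left 0 members called for 5AZA, against 14 at 5 points, 31 with none and 1 without fragment ends (inside Mocs3, -11.34 points), and 0 to 3 with a library left out (Drd5 without UUO library 2, Mocs3 without 5AZA library 2, and Bsn, Vegfa and the window at 80616001 of chromosome 10 without 5AZA library 1). At any difference the count of 31 became 14 at 20 reads, where 77 windows were members, 15 without fragment ends, 19 with edgeR and 0 to 51 with a library left out. For UUO against its sham 1 member was called without fragment ends, and 0 to 1 with a library left out. Equal library numbers of both UUO groups correlated at 0.17 over members and 0.07 over all windows, in 2 pairs. The labels do not say that equal numbers mark a pair. With the replicate block 0 members were called at 10 points, against 1113 of all windows. At any difference 64 members passed with it, against 2290 of all windows, up from 575 without the block. For 5AZA at 5 points 529 of all windows were called. At any difference 403 of 72389 windows passed at 20 reads and 399 of 33656 without fragment ends. Without fragment ends 285 of the 33656 were called for 5AZA at 10 points, and 63 for UUO against its sham. Of the members at 20 reads 76 were among the 162, so depth limits which windows can be described, and single windows had a median SE of 0.93 points for 5AZA and 1.02 for UUO.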
